A study of Mus musculus with 20 samples.

Results

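The genes described here encode the subunits of oxidative phosphorylation, and they were measured by messenger RNA sequencing in the mouse retina. They were chosen by name alone: the nuclear genes of complexes I to V (Nduf, Sdh, Uqcr, Cyc1, Cox and Atp5 symbols) and the protein genes of mitochondrial DNA. Names that start with Ndufaf, used for assembly factors, or that hold -ps, used for pseudogenes, were dropped. Other assembly factors or pseudogenes with a matching symbol were not removed. Genes were kept where the mean over all 20 libraries reached 1 CPM (a gene's counts after all gene counts are scaled to the same total in every library). Of 35006 genes in the tables, 99 had a matching name and 87 reached that level, of which 80 are nuclear and 7 mitochondrial. Sorted by symbol alone, here and below, the nuclear members comprise 36 genes of complex I, 4 of complex II, 9 of complex III, 14 of complex IV and 17 of complex V. A symbol does not always give the complex of the product, and Ndufa4 is counted under complex I. The mitochondrial members are mt-Nd1, mt-Nd2, mt-Nd4, mt-Nd5 and mt-Nd6 of complex I, mt-Cytb of complex III and mt-Co1 of complex IV.

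All mice were wild-type C57BL/6J, a common inbred strain, and each library came from a retina of a different mouse. NACET stands for N-acetyl-L-cysteine ethyl ester, an ester of N-acetylcysteine that enters cells readily and is a source of cysteine for glutathione. Treated mice drank it at 50 mg/kg body weight daily for 5 days. Young Ctrl comprised 4 untreated mice of 119 days, labelled as 2 males and 2 females. Young NACET comprised 6 treated mice, labelled as 4 males of 129 days and 2 females of 119 days, and the batch tag of female replicate 6 reads 129 days. Old Ctrl comprised 4 untreated mice of 668 days and Old NACET 6 treated mice of 668, 581 and 574 days (2 of each age), all labelled male. The study's methods describe only male mice. The labels do not tie the 581-day and 574-day mice to any untreated mice of the same age, and every young male under NACET was 129 days old where every young male control was 119 days old, so cohort and treatment cannot be told apart there.

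Oxidative phosphorylation transfers electrons from NADH through complex I, or from succinate through complex II, to coenzyme Q, then through complex III and cytochrome c to complex IV, where oxygen is reduced. The proton gradient built by complexes I, III and IV drives ATP synthesis at complex V. The subunits of complex II all come from nuclear genes, whereas the other complexes combine nuclear subunits with subunits translated inside the organelle from mitochondrial DNA. In the retina, mitochondria are packed densely into the inner segments of photoreceptors, and photoreceptors are among the cells with the highest oxygen use.

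The mitochondrial mRNAs with counts were those with enough sequence found only in mitochondrial DNA. Of the 13 mitochondrial protein genes, 6 had nearly no counts and were left out at the level threshold: mt-Nd3, mt-Nd4l, mt-Co2, mt-Co3, mt-Atp6 and mt-Atp8. Their totals over all 20 libraries were 95, 2, 8, 13, 4 and 10 counts, in that order, where mt-Cytb had 3323459. Each of these 6 had a copy in the nuclear part of the mm9 assembly over at least 99% of its length, at 98% identity or more in alignments of 50 bases or more, and none of the 7 counted genes did. The copy lies on chromosome 1 (mm9, chr1:24618374-24623027, 4654 bases) and takes in sequence of 8 of the 13 genes. Of those, mt-Nd4 was copied over 63.6% of its length and mt-Co1 over 31.3%, and both kept high counts. The 5 genes with no such copy were mt-Nd1, mt-Nd2, mt-Nd5, mt-Nd6 and mt-Cytb. Reads with more than 1 alignment were set aside at counting, at 6.65% to 7.92% of reads per library, and how many of them came from these genes was not tested. No level is drawn for the 6 genes from these values, since a read that also matches chromosome 1 would not have been counted for them.

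mt-Atp8, a membrane subunit of complex V, shows a gene copied whole, and mt-Nd4, a proton-pumping subunit of complex I, shows the border of the copy. Both are read 5′ to 3′ from mm9, and capitals mark bases inside the chromosome 1 copy. The mt-Atp8 run is the whole gene (chrM:7766-7969, plus strand, 204 bases), identical at 100% to chr1:24621448-24621651 on the minus strand. The mt-Nd4 run is bases 837 to 916 of the gene (chrM:11003-11082, plus strand), where the copy ends after base 876.
mt-Atp8: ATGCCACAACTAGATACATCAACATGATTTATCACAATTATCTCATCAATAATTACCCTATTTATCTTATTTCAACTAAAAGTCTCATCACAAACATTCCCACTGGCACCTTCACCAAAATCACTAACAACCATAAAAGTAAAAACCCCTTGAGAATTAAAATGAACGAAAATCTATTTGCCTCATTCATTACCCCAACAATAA
mt-Nd4: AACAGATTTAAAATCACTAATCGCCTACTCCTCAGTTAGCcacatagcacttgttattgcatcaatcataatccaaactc
In the mt-Atp8 run every base is in capitals. In the mt-Nd4 run the bases in lower case begin the remaining part of the gene, for which no copy was found.

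**Figure D1:**
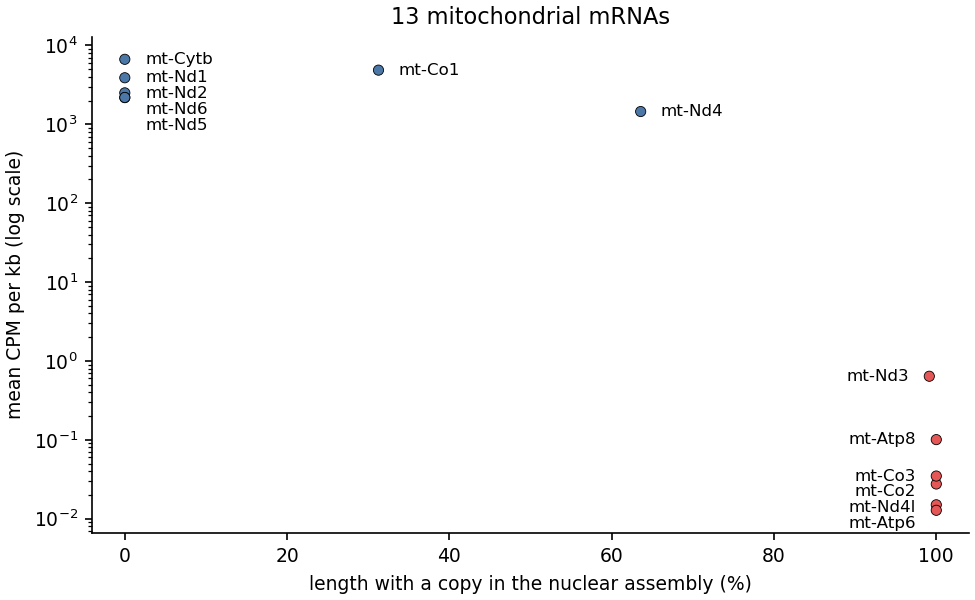
Mean CPM per kb over 20 libraries (log scale) against the percent of each gene's length with a copy in the nuclear assembly, for the 13 mitochondrial mRNAs. Blue points are the 7 genes kept and red points the 6 left out, and all red points sit at 99.1% to 100% of copied length and below 1 CPM per kb.

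Levels between genes were compared per kb of exon length, taken over all annotated exons of a gene together. That length can exceed the longest transcript. It was 4237 against 1916 bases for Atp5b and 1237 against 801 for Uqcrh, but 1655 for both measures in Uqcrc1. Ranks, maxima and medians per kb of nuclear genes rest on this choice and can differ with transcript length. Among the mitochondrial members, mt-Cytb was the most abundant at 6669 CPM per kb, followed by mt-Co1 at 4860, mt-Nd1 at 3891, mt-Nd2 at 2504, mt-Nd6 at 2189, mt-Nd5 at 2178 and mt-Nd4 at 1451. Whether the partial copies of mt-Co1 and mt-Nd4 affected their values per kb was not tested. By this length the nuclear members reached at most 489 CPM per kb. The nuclear genes with the highest level per kb of exon length in each complex were Ndufa4 (489 CPM per kb), Sdha (95.8), Uqcrc1 (118), Cox4i1 (298) and Atp5b (267). Ndufa4 is named for complex I but its product is now regarded as a subunit of complex IV, Sdha encodes the flavoprotein of succinate dehydrogenase, Uqcrc1 a core protein of complex III, Cox4i1 the ubiquitous form of a regulatory subunit of complex IV, and Atp5b the catalytic beta subunit of ATP synthase. Median levels per kb over the nuclear members were 39.97 for complex I, 36.5 for complex II, 62.4 for complex III, 60.5 for complex IV and 32.6 for complex V.

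Where a subunit has several forms, the retina used the ubiquitous one. Cox4i1 stood 15.1-fold above Cox4i2, the form known from lung and from low oxygen, per kb. Cox6b1 was 22.9-fold above Cox6b2, a form known from testis, and Cox7a2 was 16.5-fold above Cox7a1, the form of heart and skeletal muscle. The muscle forms Cox6a2 and Cox8b lay below the level threshold, 359-fold and 152-fold under Cox6a1 and Cox8a per kb, as did Cox8c, which had 3 counts in all 20 libraries. Ndufa4l2, a relative of Ndufa4 known from low oxygen, was 807-fold below it and was also left out, as were Cox7b2 and Atp5l2. The c ring of complex V is encoded by Atp5g1, Atp5g2 and Atp5g3, whose products differ only in the import sequence that is cut off. Atp5g3 had 79.8 CPM per kb, against 3.78 for Atp5g1 and 1.60 for Atp5g2. Of these, Atp5g2 had a copy over 100% of its longest transcript and Atp5g1 over 32.6%, so their low levels are uncertain. In all, 14 of the 80 nuclear members had a copy over at least 10% of the longest transcript, and their median was 13.4 CPM per kb against 48.3 for the others.

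The libraries held 17700500 to 31081959 gene counts. The defining genes of rods were abundant in all libraries (8 of 8 genes, summed level 62799 to 95114 CPM), as a retina should show. In 1 of 20 libraries the sex label went against the data: Old Ctrl replicate 4, labelled male, had 2473 CPM of Xist and 0.0415 CPM of 4 Y-linked genes. Old NACET replicate 1 carried RNA of lens (4 genes, summed level 7011 CPM, at most 15.2 CPM in the other 19 libraries). The 5 genes of cornea and conjunctiva, called cornea genes below, summed to at most 395 CPM in Old Ctrl and 374 CPM in Young NACET. They summed to at most 10.9 CPM in Young Ctrl and 9.01 CPM in Old NACET. Several libraries of these 2 groups carried a signal of surface epithelium. Krt5, a keratin of such epithelium, was at 17.6, 63.1, 160.0 and 73.7 CPM in Young NACET replicates 2 to 5. It was at 171.4 and 20.8 CPM in Old Ctrl replicates 2 and 4, against at most 7.11 CPM in the other 14 libraries. The list did not agree in every library: Krt12 was at 18.2, 1.20, 161 and 91.9 CPM in Young NACET replicates 2 to 5. Replicate 3, low in Krt12, had the highest Krt14, 7.26 CPM. Each comparison below was refitted without every library in turn, which does not remove a signal that several libraries carry.

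The members together took a small part of each library. Nuclear members held 0.666% to 0.888% of gene counts and mitochondrial members 2.24% to 3.34%. In Young Ctrl the nuclear share was 0.888%, 0.691%, 0.677% and 0.768% in replicates 1 to 4. In Old Ctrl it was 0.738%, 0.723%, 0.705% and 0.739%. Young Ctrl replicate 1 stood above every other library, and the other 3 young controls spanned the old ones. In Young NACET the nuclear share had a lowest value of 0.666%, a median of 0.755% and a highest value of 0.836%, and in Old NACET 0.679%, 0.731% and 0.782%. The nuclear means therefore ran from 0.726% ± 0.0161 (SD, n = 4) in Old Ctrl to 0.756% ± 0.0966 (SD, n = 4) in Young Ctrl, a distance smaller than the SD of the young controls.

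The mitochondrial share in Young Ctrl was 3.01%, 2.47%, 2.76% and 2.68%, and in Old Ctrl 2.71%, 2.72%, 2.83% and 2.96%. In Young NACET its lowest, median and highest values were 2.80%, 3.03% and 3.34%, and in Old NACET 2.24%, 2.79% and 3.11%. Young NACET was the highest group with a mean of 3.06% ± 0.179 (SD, n = 6), next to 2.73% ± 0.225 (SD, n = 4) in Young Ctrl, 2.81% ± 0.116 (SD, n = 4) in Old Ctrl and 2.77% ± 0.299 (SD, n = 6) in Old NACET, and all 4 groups overlap. From lowest to highest mean, the ratio of mitochondrial to nuclear counts was 3.64 ± 0.308 in Young Ctrl, 3.80 ± 0.469 in Old NACET, 3.87 ± 0.171 in Old Ctrl and 4.12 ± 0.480 in Young NACET (SD, n = 4, 6, 4 and 6), and neighbours in this order overlap. By complex, the summed nuclear CPM followed the same library: complex I had 2431 ± 381 CPM in Young Ctrl and 2284 ± 50.9 CPM in Old Ctrl, and complex V 2838 ± 310 CPM and 2743 ± 64.0 CPM (SD, n = 4 each). For complex II, Young Ctrl replicate 1 was again the highest young control, but the groups did not overlap. Its sum was 543 to 573 CPM in Young Ctrl and 582 to 592 CPM in Old Ctrl. Most of that sum is Sdha, at a mean of 372 CPM over all libraries. Of the 4 genes of complex II, 2 were higher with age and 2 lower, with a median log2 difference of 0.0016. Old NACET replicate 6 had the lowest ratio of all, 2.87, and the lowest mitochondrial share.

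**Figure D2:**
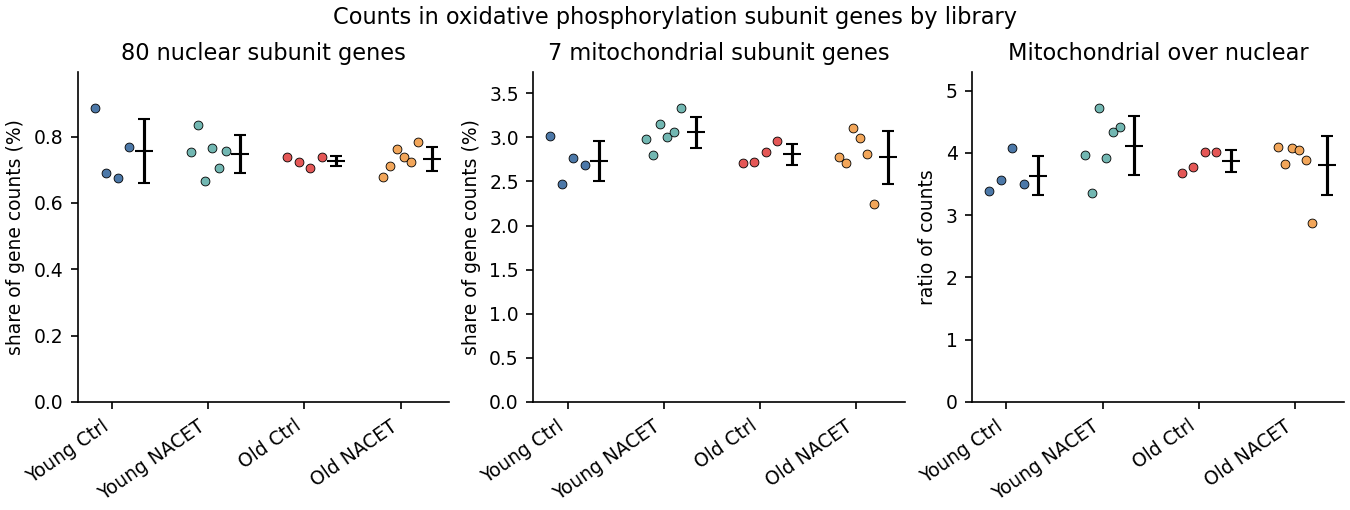
Share of gene counts in the 80 nuclear members (left, %), share in the 7 mitochondrial members (middle, %) and ratio of mitochondrial to nuclear counts (right) for each library, by group. Points are libraries, and bars are the mean and SD of 4, 6, 4 and 6 libraries; Young Ctrl replicate 1 is the highest nuclear share at 0.888% and Old NACET replicate 6 the lowest ratio at 2.87.

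The nuclear members moved together from library to library. Young Ctrl replicate 1 had the highest CPM of its group for 72 of 80 nuclear members, and its median deviation from the other 3 young controls was 0.36 on the log2 scale. The shift was larger in short transcripts: the median deviation was 0.44 over the 42 members under 1 kb and 0.21 over the 10 members of 2 to 4 kb. Genes that are no members showed the same order with smaller values, 0.22 over 1296 genes under 1 kb and -0.05 over 5943 genes of 2 to 4 kb. Members are short, with 52.5% under 1 kb against 8.76% of the 14800 other genes at a mean of 1 CPM or more. Young NACET replicate 2 was likewise the highest of its group for 52 of 80 nuclear members, and Old NACET replicate 6 for 47. Young Ctrl replicate 1 and Young NACET replicate 2 also had the lowest shares of reads outside annotated genes, 14.3% and 14.1%, where all libraries ranged from 14.1% to 20.5%. Their part in the comparisons below was not tested otherwise than by leaving the libraries out.

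Differences between groups were tested with edgeR's quasi-likelihood test over all expressed genes, with Benjamini-Hochberg adjustment, and calls were made below an adjusted p of 0.05. All 87 members passed the filter on low counts in every comparison. The comparison of old with young retinas asks how the untreated retina differs with age. The groups also differ in labelled sex, with 2 females among the young controls and none among the old. Old Ctrl replicate 4 counts there as male, against its Xist and Y-linked values. Fits with labelled sex, here and below, used the labels as given. Between Old Ctrl and Young Ctrl, edgeR called 0 of 87 members, where 1.42% of 16484 genes were called. At an unadjusted p under 0.05 there were 8 members (3 higher, 5 lower), 9.20% of members against 16.3% of all genes. DESeq2 called 1 member, Cox7a1. As values, the nuclear subunits were slightly lower in old retinas: 75 of 80 had a log2 difference below 0, with a median of -0.11, where 51.8% of all genes were below 0 and their median was -0.01. This held for 36 of 36 nuclear genes of complex I, 9 of 9 of complex III, 13 of 14 of complex IV, 15 of 17 of complex V and 2 of 4 of complex II. Without Young Ctrl replicate 1, the library with high nuclear subunits, 44 of 80 were below 0, 20 of 36 in complex I, and the median was -0.01. The lower nuclear values of old retinas rested on that library, whereas leaving out any other library kept the median between -0.17 and -0.09. The 8 rod genes summed to 79166 to 95114 CPM in Young Ctrl and 69909 to 84300 CPM in Old Ctrl, with 7 of 8 lower, none called and none at 0, and their part in the subunit values was not tested. In these whole retinas, fewer cells of a type and less RNA per cell cannot be told apart.

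The mitochondrial members did not share that direction, with 4 of 7 above 0 and a median log2 difference of 0.04. The median was -0.07 without Old Ctrl replicate 4, the library whose sex label went against the data, and -0.04 without Young Ctrl replicate 2. mt-Nd1, a core membrane subunit of complex I, had 3293, 2818, 3511 and 3101 CPM in Young Ctrl and 3667, 3658, 3905 and 3986 CPM in Old Ctrl. The groups did not overlap, and the log2 difference of 0.21 (SE 0.09) had an adjusted p of 0.279. mt-Nd4 went the other way, with 2257, 1873, 2051 and 2133 CPM in Young Ctrl and 1923, 1800, 1836 and 1931 CPM in Old Ctrl. Here the groups overlap, and the log2 difference was -0.20 (SE 0.08, adjusted p = 0.249).

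Cox7a1, the muscle form of a small complex IV subunit, had the largest difference of all members with age. Its level was low, 2.37, 2.46, 1.92 and 1.91 CPM in Young Ctrl and 3.92, 3.99, 3.28 and 2.91 CPM in Old Ctrl, and the groups did not overlap. The log2 difference was 0.66 (SE 0.16) with an adjusted p of 0.0722 in edgeR and 0.0371 in DESeq2, and 0.49 with an adjusted p of 0.299 in edgeR with labelled sex as a covariate. Cox7a1 lies at chr7:30969190-30971047 on the plus strand (mm9). In Old Ctrl replicate 2, which had 3.99 CPM of Cox7a1, genes of cornea and conjunctiva were at their highest in that group, and without that library the log2 difference was 0.58. The whole list of 9 heart and skeletal muscle genes summed to 5.67 to 6.97 CPM in Young Ctrl and 5.91 to 8.05 CPM in Old Ctrl, with 1 gene at 0 in every library of each group, and the part of muscle RNA in the Cox7a1 level was not tested. Atp5s, now named Dmac2l, is related to coupling factor B of ATP synthase. It had 12.7, 10.9, 9.32 and 9.77 CPM in Young Ctrl and 12.8, 13.6, 14.1 and 13.3 CPM in Old Ctrl, where the lowest old value lay just above the highest young one. Its log2 difference was 0.28 (SE 0.11, adjusted p = 0.231), and 0.39 with an adjusted p of 0.0402 without Young Ctrl replicate 1. Ndufa9, an accessory subunit of complex I near the site where NADH electrons pass to coenzyme Q, was lower by value, at 63.4 ± 7.75 CPM in Young Ctrl and 54.4 ± 3.29 CPM in Old Ctrl (SD, n = 4 each), with a log2 difference of -0.27 (SE 0.09, adjusted p = 0.183). Ndufb2, another accessory subunit of complex I, had 66.0, 60.6, 56.7 and 60.6 CPM in Young Ctrl and 57.4, 56.8, 57.4 and 53.6 CPM in Old Ctrl. These groups overlap through 1 young library, and the log2 difference was -0.16 (SE 0.06, adjusted p = 0.233). Groups did not overlap for 4 of 87 members, Atp5s, Cox7a1, Sdha and mt-Nd1, all higher in old retinas, where 11.3% of all genes did not overlap.

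**Figure D3:**
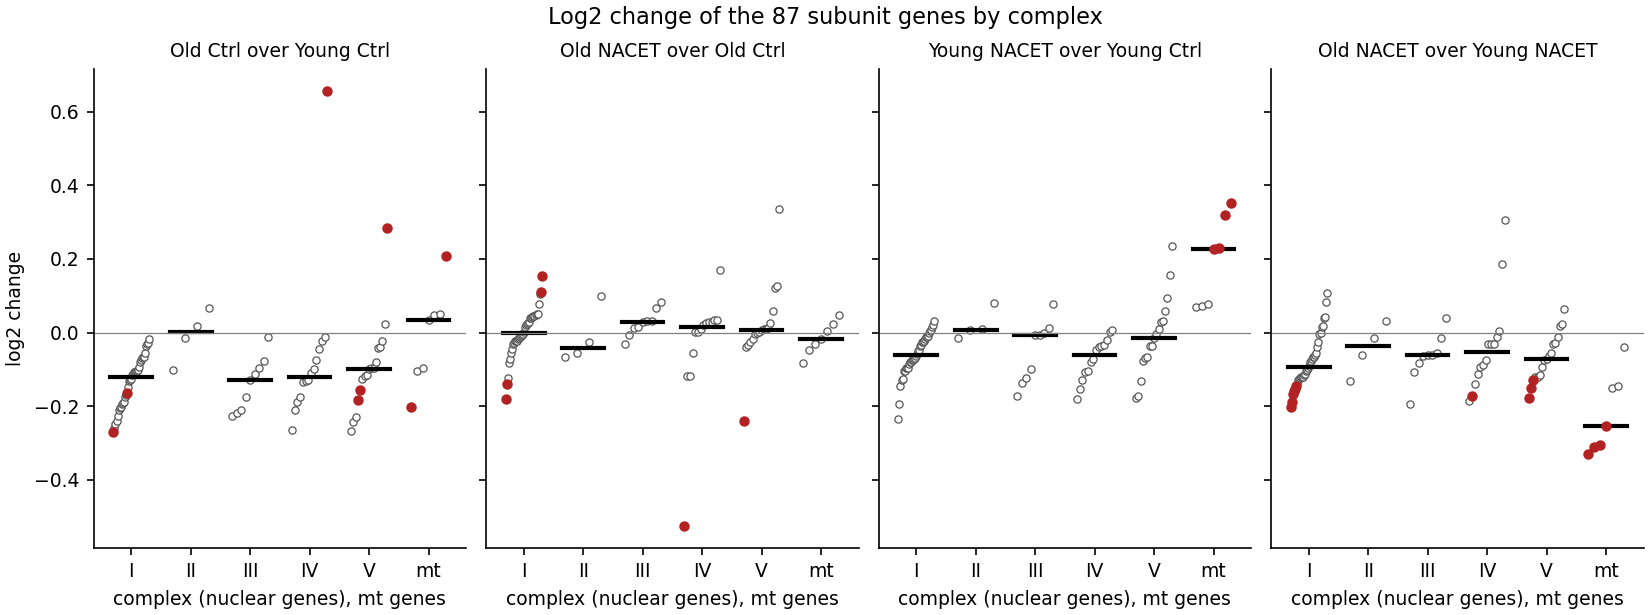
Log2 change of each of the 87 members in 4 comparisons, nuclear genes by complex (I to V) and mitochondrial genes (mt). Points are genes, sorted by value within a column, red where the unadjusted p was under 0.05, and bars are medians; in the comparison of young mice all 7 mitochondrial points lie above 0, and between old and young treated mice all 7 lie below.

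The comparison of Old NACET with Old Ctrl asks what the treatment does to the aged retina. It shares the Old Ctrl libraries with the comparison of ages. edgeR called 0 of 87 members where 0.543% of 16562 genes were called, DESeq2 called 0, and 6 members had an unadjusted p under 0.05 (2 higher, 4 lower), 6.90% of members against 14.4% of all genes. The complexes stayed close to 0 as values: the median log2 difference was 0.01 over the 80 nuclear members and -0.02 over the 7 mitochondrial members, and the medians of the 5 complexes ran from -0.04 in complex II to 0.03 in complex III. When only the 2 treated mice of 668 days were kept, the age of the controls, 66 of 80 nuclear members were below 0 instead of 34, with a median of -0.07, and between 23 and 51 were when any 1 library was left out (23 without Old NACET replicate 1, 51 without replicate 6). Those 2 mice include Old NACET replicate 1, the library with lens RNA, which had the lowest CPM of its group for 50 of 80 nuclear members. Markers of other tissues differed under NACET. The 7 pigment epithelium genes were all lower (median -1.07, 5 at an unadjusted p under 0.05), and 3 of 3 cornea genes tested were called lower. All 3 red blood cell genes were lower with none called, and of 5 muscle genes tested 3 were lower and 2 higher. Their part in the member values was not tested.

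Ndufb2, at 53.6 to 57.4 CPM in Old Ctrl, had a lowest value of 56.1, a median of 63.7 and a highest value of 67.1 CPM in Old NACET. The groups overlap only through 1 treated library, and the log2 difference was 0.15 (SE 0.05, adjusted p = 0.180). Ndufs4, an accessory subunit of the peripheral arm known from inherited complex I deficiency, had 40.3 ± 1.21 CPM (SD, n = 4) in Old Ctrl and 43.7 ± 2.80 CPM (SD, n = 6) in Old NACET, with a log2 difference of 0.11 (SE 0.05, adjusted p = 0.340). Cox7a1 had a lowest value of 1.42, a median of 2.56 and a highest value of 3.03 CPM in Old NACET, against 2.91 to 3.99 CPM in the old controls given above. The log2 difference was -0.53 (SE 0.18, adjusted p = 0.183), and -0.27 in mice of 668 days only. Atp5s had 9.99, 11.7 and 12.8 CPM as its lowest, median and highest values in Old NACET, a log2 difference of -0.24 (SE 0.08, adjusted p = 0.208). These opposite signs for Cox7a1, Atp5s and Ndufb2 in the 2 comparisons come from contrasts that share the old controls, so they do not count as separate observations. Groups did not overlap for 0 of 87 members, where 3.57% of all genes did not overlap.

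**Figure D4:**
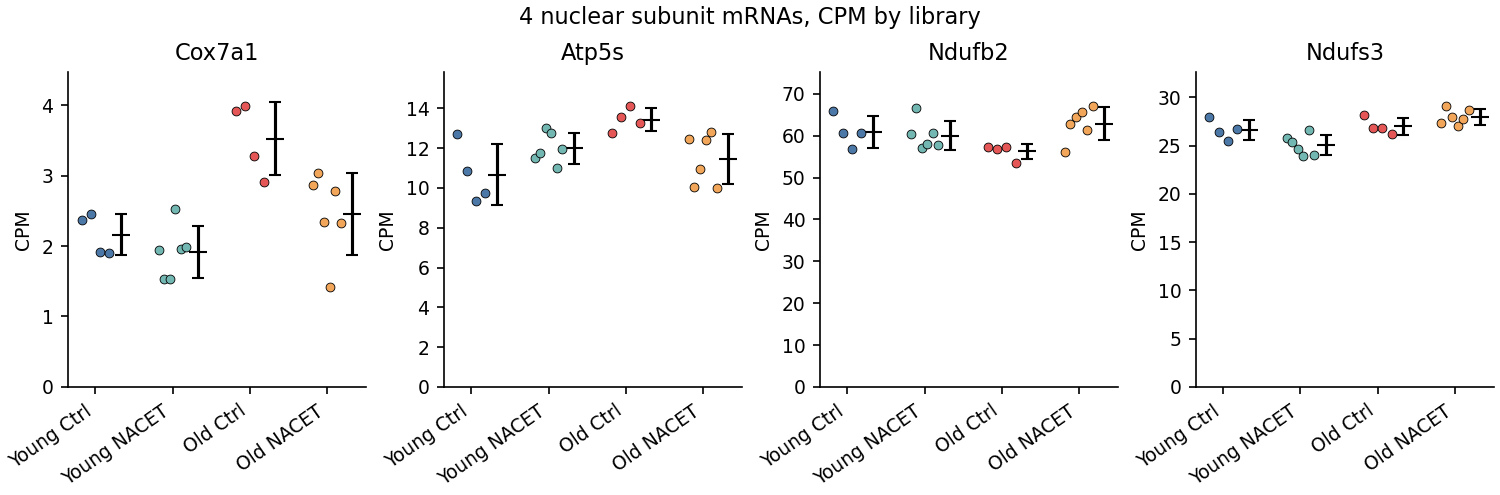
CPM of Cox7a1, Atp5s, Ndufb2 and Ndufs3 in each library, by group. Points are libraries and bars are the mean and SD of 4, 6, 4 and 6 libraries; Cox7a1 lies at 2.91 to 3.99 CPM in Old Ctrl and at 1.91 to 2.46 CPM in Young Ctrl.

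The comparison of Young NACET with Young Ctrl asks whether the treatment acts without aging. edgeR called 0 of 87 members, and 0% of 16588 genes, and DESeq2 also called 0 members and 0 genes. At an unadjusted p under 0.05 there were 4 members, 4.60% of members against 4.36% of all genes. All 4 were mitochondrial and higher under NACET, where 2.19% of all genes were higher at that level. All 7 mitochondrial members were higher as values, with a median log2 difference of 0.23, and the median stayed between 0.16 and 0.29 when any 1 library was left out. Markers of neighbouring tissues were higher under NACET as well, with none called: the 4 cornea genes tested were 4 of 4 higher (median 3.95, 4 at an unadjusted p under 0.05), and the 7 genes of the retinal pigment epithelium, a mitochondria-rich layer, were 5 of 7 higher (median 0.35). The summed pigment epithelium level was 35.02 to 208 CPM in Young Ctrl (median 47.3) and 83.1 to 169 CPM in Young NACET (median 133). In Young NACET replicates 1 and 6, Krt5 was at 2.16 and 1.08 CPM and mt-Nd6 at 1294 and 1381 CPM. Every treated library lay above all 4 controls for mt-Nd6, so these 2 add no separate information on cornea RNA. Replicate 1 had the lowest pigment epithelium sum of its group, 83.1 CPM, and replicate 6 the highest, 169 CPM. The mitochondrial shares of replicates 1 and 6 were 2.98% and 3.34%, against 2.47% to 3.01% in Young Ctrl, and that of replicate 6 was the highest of Young NACET. The part of pigment epithelium RNA in the mitochondrial values was not tested.

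mt-Nd6, the only subunit encoded on the light strand of mitochondrial DNA, had 1041, 919, 1031 and 1054 CPM in Young Ctrl. In Young NACET its lowest value was 1169, its median 1306 and its highest 1476 CPM. The groups did not overlap, and mt-Nd6 was the only one of 87 members of which that was true, where 0.723% of all genes did not overlap. The log2 difference was 0.35 (SE 0.09) with an adjusted p of 1.00 in edgeR and 0.119 in DESeq2. Counting did not use strand, so transcripts of the opposite strand over mt-Nd6 (chrM:13552-14070, minus strand) cannot be told apart from it. mt-Nd1 had 4008 ± 417 CPM (SD, n = 6) in Young NACET and 3181 ± 294 CPM (SD, n = 4) in Young Ctrl, with a log2 difference of 0.32 (SE 0.10, adjusted p = 1.00). For mt-Nd5 and mt-Nd2 the log2 differences were 0.23 and 0.23 (SE 0.09 and 0.11), whereas they were 0.08 for mt-Nd4, 0.07 for mt-Cytb and 0.07 for mt-Co1.

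The treated males were all 129 days old and the control males 119 days. Among the females, all 119 days old by title, mt-Nd6 was 1031 and 1054 CPM in the 2 controls and 1318 and 1381 CPM in the 2 treated mice, and mt-Nd1 was 3511 and 3101 CPM against 4012 and 4589 CPM. Both treated females thus lay above both control females for each gene, with 2 mice a side and no test. For mt-Nd6 this was given beforehand, since the whole groups did not overlap. Both genes were also named for their small p in this same comparison, and the batch tag of treated female replicate 6 reads 129 days. The females therefore give no separate check on age. With the age in the title as a covariate the log2 difference was 0.42 for mt-Nd6 and 0.44 for mt-Nd1. All young mice of 129 days were treated, so that fit sets the 2 treated females against all young controls, male and female. It is therefore no separate adjustment for age across the treated mice.

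The nuclear members did not follow the mitochondrial ones. Of 80, 61 were below 0 with a median log2 difference of -0.04, but without Young Ctrl replicate 1 only 6 were below 0, with a median of 0.08, and without Young NACET replicate 3 there were 40. Among the nuclear subunits with lower values, the smallest p belonged to Ndufb4 (-0.23, SE 0.15) and Ndufs5 (-0.15, SE 0.10), both accessory subunits of complex I with an adjusted p of 1.00. Both have copies elsewhere in the genome, over 49.8% and 64.3% of the longest transcript, so their counts are uncertain.

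**Figure D5:**
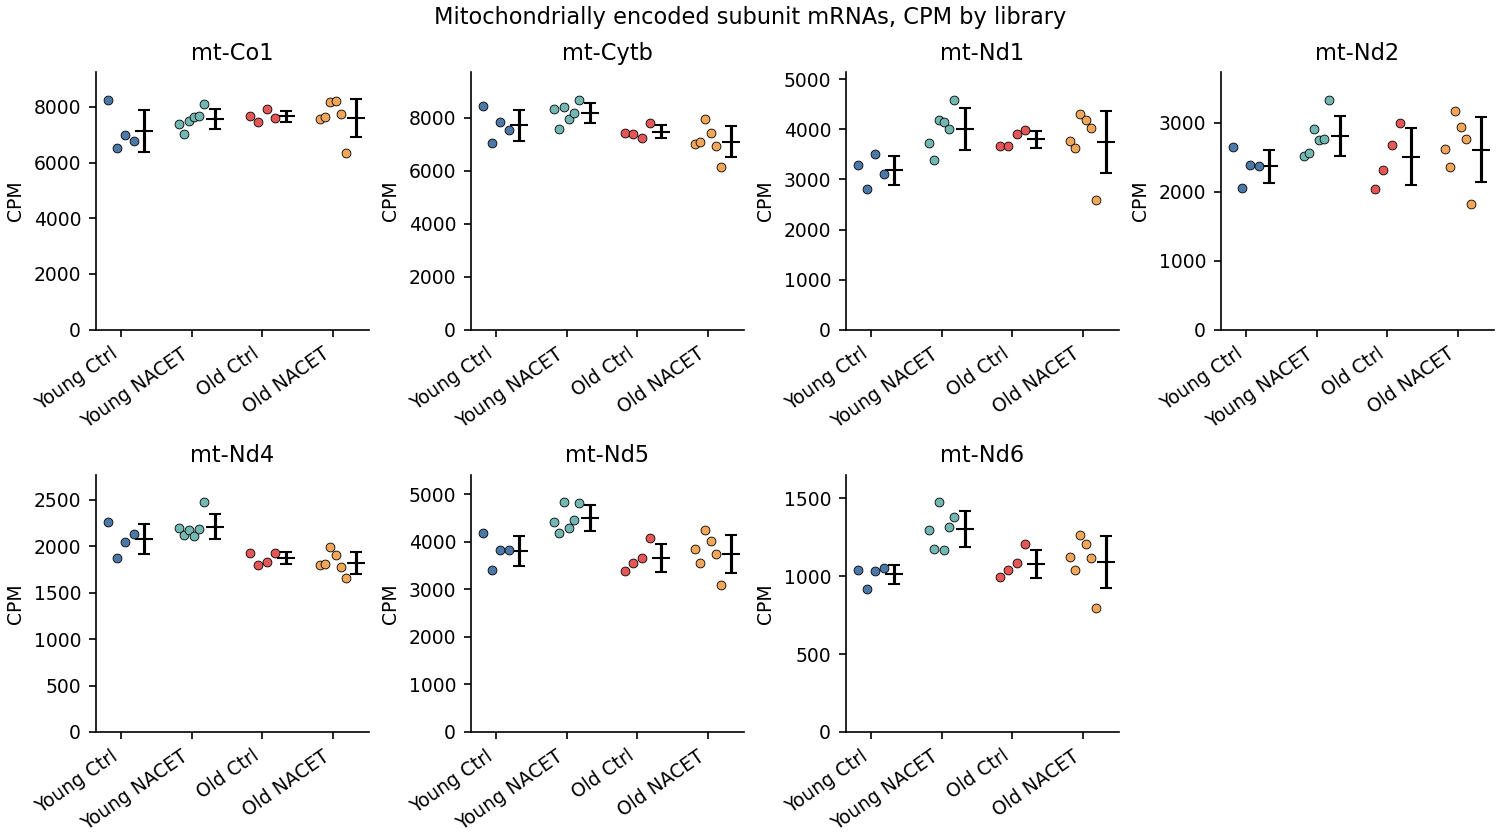
CPM of the 7 mitochondrial members in each library, by group. Points are libraries and bars are the mean and SD of 4, 6, 4 and 6 libraries; mt-Nd6 lies at 1169 to 1476 CPM in Young NACET and at 919 to 1054 CPM in Young Ctrl, and Old NACET replicate 6 is the lowest of its group for all 7 genes.

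The comparison of the treated groups, Old NACET with Young NACET, shares its libraries with the other treatment comparisons and is the only one of the 5 in which edgeR, fitted on all libraries of its groups, called members. edgeR called 4.88% of 16276 genes, and 2.64% as lower. Of the 87 members 2 were called, mt-Nd4 and mt-Nd5, both lower in old retinas, a share of 2.30%. At an unadjusted p under 0.05 there were 14 members, all lower, which is 16.1% of members, where 21.1% of all genes reached that level and 10.7% as lower.

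mt-Nd4 had a lowest value of 2110, a median of 2179 and a highest value of 2477 CPM in Young NACET, and 1655, 1804 and 1997 CPM in Old NACET. The groups did not overlap, and mt-Nd4 fell by 0.33 on the log2 scale (SE 0.07, adjusted p = 0.00821). mt-Nd5, a proton-pumping subunit like mt-Nd4, had 4186, 4435 and 4840 CPM in Young NACET and 3090, 3801 and 4242 CPM in Old NACET. These groups overlap at their edges, and mt-Nd5 fell by 0.31 (SE 0.08, adjusted p = 0.0297).

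The call of mt-Nd4 held without each library in turn, while that of mt-Nd5 was lost without Old NACET replicate 1, 2 or 5, with adjusted p of 0.0622, 0.0645 and 0.0562. With labelled sex as a covariate mt-Nd4 kept an adjusted p of 0.0274 and mt-Nd5 had 0.0624. In the 2 treated old mice of 668 days only, no member was called, with log2 differences of -0.35 and -0.33 for the 2 genes. In Young Ctrl against Old Ctrl the same 2 genes had log2 differences of -0.20 and -0.10 and were not called, and whether age acted differently with and without NACET is tested below as an interaction.

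mt-Nd6 and mt-Cytb, the cytochrome b of complex III, were lower by a similar value and not called by edgeR, at -0.31 (SE 0.10, adjusted p = 0.0801) and -0.25 (SE 0.07, adjusted p = 0.0552). DESeq2 called both, along with mt-Nd4, mt-Nd5 and Cox8a, and edgeR fitted on all 4 groups called mt-Nd4, mt-Nd5, mt-Nd6 and mt-Cytb. mt-Nd1, mt-Nd2 and mt-Co1 had -0.14, -0.15 and -0.04. Over the 7 mitochondrial members the median was -0.25, and between -0.30 and -0.22 when any 1 library was left out. Old NACET replicate 6 had the lowest CPM of its group for 7 of 7 mitochondrial members, and without it 6 of 7 were still lower and both calls remained.

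Of the nuclear members, 66 of 80 were lower as values, with a median of -0.07, where 50.4% of all genes were. The 10 at an unadjusted p under 0.05 comprised 6 of complex I, 1 of complex IV and 3 of complex V. The smallest p belonged to Cox8a, a small ubiquitous subunit of complex IV, at -0.17, and next came Ndufa9 at -0.15, with adjusted p of 0.0825 and 0.0992. Ndufs3, a core subunit of the peripheral arm of complex I, did not overlap between the groups in the other direction, at 23.96 to 26.61 CPM in Young NACET and 27.06 to 29.12 CPM in Old NACET. Its log2 difference was 0.11 (SE 0.05, adjusted p = 0.248), and 84.4% of its longest transcript has a copy elsewhere. Cox7a1, next in that direction, had 0.31 (SE 0.18, adjusted p = 0.333). Groups did not overlap for 2 of 87 members, mt-Nd4 and Ndufs3, where 4.07% of all genes did not overlap.

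Markers of several cell types differed in this comparison as well. The 8 rod genes summed to 75472 to 93441 CPM in Young NACET and 62799 to 75295 CPM in Old NACET, with 7 of 8 lower as values, 1 called lower and 1 called higher, and none at 0. The 5 cone genes summed to 1635 to 1972 CPM in Young NACET and 1433 to 1663 CPM in Old NACET, with 5 of 5 lower (median -0.21), 2 called lower and none at 0. The 7 genes of the retinal pigment epithelium summed to 83.1 to 169 CPM and 29.5 to 108 CPM, with 7 of 7 lower and 1 called. The 5 cornea genes summed to 3.23 to 374 CPM and 0.396 to 9.01 CPM, and 3 of the 3 tested were called lower. Their part in the lower mitochondrial mRNAs was not tested.

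The difference of treatment between ages was tested as an interaction over all 20 libraries. edgeR called 0 of 87 members and 0% of 16993 genes, DESeq2 called 0 members, and 3 members had an unadjusted p under 0.05, 3.45% of members against 6.19% of all genes. All 7 mitochondrial members were below 0, meaning a less positive value of the treatment difference in old mice, with a median of -0.19. The values were -0.35 (SE 0.14, adjusted p = 0.685) for mt-Nd6, -0.35 (SE 0.15, adjusted p = 0.727) for mt-Nd1 and -0.40 (SE 0.13, adjusted p = 0.431) for Atp5s. On the other side stood Ndufb2 at 0.18 (SE 0.09, adjusted p = 0.813) and Ndufs3 at 0.14 (SE 0.08, adjusted p = 0.833). A different response of the subunits to NACET in young and old mice was therefore not detectable with these libraries.

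Genes that serve the respiratory chain without being subunits were counted over lists. In the comparison of ages and in both comparisons of NACET with its own controls, edgeR called 0 of the 27 assembly factors tested, 0 of 15 genes of mitochondrial DNA maintenance and transcription, 0 of 15 regulators of mitochondrial biogenesis, 0 of 19 genes of the tricarboxylic acid cycle and 0 of 14 genes of cytochrome c and coenzyme Q. DESeq2 called Rrm2b with age and no other gene of these lists in the 3 comparisons. At an unadjusted p under 0.05 these lists held 3, 3, 4, 3 and 3 genes in the comparison of ages, 3, 1, 1, 3 and 1 in old mice under NACET, and 0, 1, 2, 0 and 3 in young mice, where 16.3%, 14.4% and 4.36% of all genes reached that level. Of the tricarboxylic acid cycle, 17 of 19 were below 0 with age (median -0.09) and 18 of 19 above 0 in old mice under NACET (median 0.05), 2 contrasts that share the old controls, where 51.8% of all genes were below 0 and 50.8% above 0. Directions in these lists were not recomputed without single libraries, so the part of Young Ctrl replicate 1 in them was not tested. For mitochondrial DNA maintenance and transcription, 13 of 15 were above 0 with age, with a median of 0.05, where 48.2% of all genes were. The smallest p of that list was that of Rrm2b, chosen here after its value was seen, a subunit of ribonucleotide reductase that supplies nucleotides for mitochondrial DNA, at 0.31 (SE 0.08, adjusted p = 0.0716).

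Between the treated groups, edgeR called 1 of 15 biogenesis regulators, 1 of 14 genes of cytochrome c and coenzyme Q and 0 of the genes in the other 3 lists (27, 15 and 19 tested, 5, 4 and 1 at an unadjusted p under 0.05), where 4.88% of all genes were called. Esrrb, an estrogen-related receptor expressed in rods, fell by 0.96 on the log2 scale in old retinas (SE 0.12, adjusted p = 9.29e-05). Coq7, which carries out a late hydroxylation in coenzyme Q synthesis, fell by 0.23 (SE 0.06, adjusted p = 0.0414). Esrrb had 0.41 (SE 0.10, adjusted p = 1.00) in young mice under NACET and -0.31 (SE 0.13, adjusted p = 0.285) in old mice, and its interaction of -0.72 (SE 0.17) had an adjusted p of 0.103. DESeq2 called Esrrb in that interaction, and between the treated groups it called Esrrb, Coq7 and Ttc19, an assembly factor of complex III.

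NRF1, unrelated to the redox factor NRF2 despite the name, and GABP, an ETS factor, are known activators of nuclear respiratory genes. RefSeq promoters (GRCm38.p6, from 250 bases before to 50 after the start) were matched for 67 of the 80 nuclear members. The NRF1 core CGCATGCG, which reads the same on both strands, was in 9 of 67 promoters, 13.4%, against 2.77% of the promoters of 17492 protein-coding genes. The ETS core CCGGAAGT on either strand was in 5 of 67, 7.46% against 5.69%. TGACNNNGC, a core of the antioxidant response element that NRF2 binds, was found on either strand in 9 of 67, 13.4% against 14.8%. None of these motifs shares its letters with another. The promoter of Uqcrc1, the nuclear gene of complex III with the highest level per kb of exon length, is shown as an example. It holds the NRF1 core, in capitals (GRCm38.p6, chr9:108936398-108936697, plus strand, 300 bases).
Uqcrc1: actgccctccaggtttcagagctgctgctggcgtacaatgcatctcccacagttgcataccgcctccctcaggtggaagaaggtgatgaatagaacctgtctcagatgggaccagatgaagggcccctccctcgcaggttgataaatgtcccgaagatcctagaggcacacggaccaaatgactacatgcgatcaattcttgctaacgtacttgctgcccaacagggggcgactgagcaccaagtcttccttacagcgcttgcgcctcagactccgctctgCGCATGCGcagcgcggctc
A match to these letters describes the sequence and is no measure of binding.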

How the data were processed

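Retinal polyA RNA was sequenced in 20 mice. According to labels and methods, the authors prepared TruSeq libraries, aligned reads to mm9 with TopHat2 2.1.0 and Bowtie and counted them with HTSeq 0.11.2 without strand, in intersection-nonempty mode, so reads of overlapping genes cannot be told apart by strand. The deposited values are raw counts per gene. Rows without a gene name were left out, at most 0.00157% of reads. Groups, ages and sexes came from the labels. Members and lists were chosen with earlier results of these data known.

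The test was edgeR 4.0.16 under R 4.3.3 (TMM, default filter on low counts, quasi-likelihood test), 1 fit per pair of groups, with Benjamini-Hochberg adjustment over all genes. SE is that of the log2 difference. DESeq2 1.42.0, the tool of the study, was an alternative. The fit was tested on simulated counts. The p-values weigh a group difference against the spread between mice within a group, which in some groups includes differences of age or labelled sex. Positions and exon lengths came from GENCODE vM1, where 99 of 99 names were found, and copies from blastn 2.17.0. Named genes were the called members (up to 8 per direction), or the 2 with the smallest p in a direction without calls. Also named were the 13 mitochondrial mRNAs, the nuclear gene per complex with the highest level per kb of exon length, subunit forms and called genes of the other lists. Others named for their values were chosen after these were seen. Alternatives changed normalization, filter, tool, library size, covariates and libraries.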

Additional observations from a re-analysis of the deposited data

Results flagged for a closer look

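In 72 groups of 4 or 6 libraries (18 measures in 4 groups each), a library set apart from the rest of its group by a gap that was a large part of the group's range was found 6 times. Chance sets apart about 1 in 20 groups of independent measures. These measures share genes and libraries, so the 6 cannot be read against that share. Old NACET replicate 6 had a mitochondrial to nuclear log2 ratio of 1.52, where the other 5 libraries lay between 1.93 and 2.03. In the same library mt-Co1 was at 6332 CPM (others 7557 to 8204) and Ndufs5 at 17.1 CPM (others 13.4 to 14.7). Ndufb2 was at 53.6 CPM in Old Ctrl replicate 4 (others 56.8 to 57.4), the library whose sex label went against the data. Ndufb4 was at 3.41 CPM in Young NACET replicate 3 (others 3.90 to 4.08). mt-Nd4 was at 2477 CPM in Young NACET replicate 6 (others 2110 to 2193), and without that library its fall between the treated groups was -0.29 on the log2 scale with an adjusted p of 0.0128.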

How the results depend on the processing

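None of the log2 changes recomputed for single genes (the called members or the smallest p per direction in each comparison) changed its sign under an alternative. The mitochondrial to nuclear ratio moved by less than the spread between libraries, but its sign was not stable in old mice. There the mean log2 ratio was 1.95 in Old Ctrl and 1.91 in Old NACET, while the medians were 1.96 and 1.99. Old NACET replicate 6, at 1.52, set the lower mean. Mitochondrial members near 0 did change sign: 3 of 7 were below 0 with age, 5 without Old Ctrl replicate 4 or Young Ctrl replicate 2, and in old mice under NACET 4 of 7 were below 0, 7 without Old Ctrl replicate 1 or Old NACET replicate 3 and 2 without Old NACET replicate 6. In the comparison of ages, DESeq2 called 1 member (Cox7a1), and the fits without 1 library called between 0 and 1 (Atp5s, without Young Ctrl replicate 1). Between the treated groups, where edgeR called 2, DESeq2 called 5, the fit of all 4 groups 4, labelled sex as a covariate 1, labelled males only 1, old mice of 668 days only 0, and the fits without 1 library between 1 and 4. With the replicate number as a replicate block, on the 4 numbers shared by both groups, 0 members were called in that comparison and 0 in the others. The numbers did not pair the mice: the correlation of deviations ran from -0.18 to 0.18 and was over 0.1 in 4 of 16 pairs. The cause of these differences was not tested, other than that the block, the males and the 668-day fits use fewer mice. Among all genes, DESeq2 called 721 against 234 with age, 375 against 90 in old mice under NACET, 1326 against 795 between the treated groups and 86 against 0 in the interaction. The lowest counts were 69 (labelled males), 0 (668 days only) and 151 (668 days only) in those 3 comparisons of groups. Without filter on low counts the interaction had 49. In young mice the highest count of calls was 8 (without Young Ctrl replicate 4) against 0. RLE size factors, other filters and library sizes without mitochondrial genes kept the number of members called in all 5 comparisons, as did member thresholds of 0.5 and 2 CPM in the 4 comparisons of groups. Restricting the treated groups to 668-day old mice for the medians was chosen after seeing the data and gave -0.15 for nuclear and -0.27 for mitochondrial members. Counts limit Cox7a1, at a few CPM, more than the other named members.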

Other observations

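The ribosomal RNAs of mitochondrial DNA are no subunits, and polyA selection captures them only in part. The share of gene counts of mt-Rnr1 was 0.0266% ± 0.00138 in Young Ctrl, 0.0321% ± 0.00503 in Young NACET, 0.0334% ± 0.00273 in Old Ctrl and 0.0406% ± 0.00702 in Old NACET (SD, n = 4, 6, 4 and 6). For mt-Rnr2 it was 0.113% ± 0.0130, 0.146% ± 0.0237, 0.127% ± 0.0151 and 0.1502% ± 0.01995 in the same order. These shares were not tested.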
